A study of Arabidopsis thaliana with 6 samples.

Results

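A set of 8 genes that act early in the anther or in meiosis was examined in unopened flower buds of drought-treated Arabidopsis thaliana: SPL, EMS1 and AMS of anther development, and SDS, RCK, ATMND1, ZYP1b and SPO11-1 of meiosis. They were chosen by name for these roles, with earlier results of these data known. The 8 genes are among 13513 probe sets that the array annotation names with a single gene, out of 22746 probe sets tested, and each is read by 1 probe set. No filter on low values was applied, so all 8 were tested.

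The 6 arrays came from 1 mutant line, dreb1a (CS872453) in the Col-0 ecotype. DREB1A encodes a transcription factor of the cold and drought response. The plants grew well watered for 24 days, until the main stem was about 1 cm high, and water was then withheld. The soil reached about 35% of its water-holding capacity after about 80 hours, which counts as day 3, and was kept there by daily watering. Buds were taken on drought days 3, 4 and 5, when the plants were 28, 29 and 30 days old, and 2 arrays were run per day. Every group thus shared the mutant genotype and the drought, and no wild-type or well-watered buds were analysed here. Age and length of drought rise together and cannot be told apart. The labels do not say whether the 2 arrays of a day came from separate plants, so the p-values may measure technical spread. DREB1A had no probe set named with that gene alone, so its level was not used to check the genotype.

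In the young anther, a few cells take on the reproductive fate and give rise to the pollen mother cells and to the wall layers around them. The innermost wall layer, the tapetum, feeds the developing pollen and supplies material for its coat. The pollen mother cells then pass through meiosis, in which programmed DNA breaks are made and repaired on the partner chromosome while a protein axis, the synaptonemal complex, holds the paired chromosomes together. These steps take place in small, closed buds, well before a flower opens.

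The tissue label was set against marker genes. Of 12 floral organ identity genes listed, 1 had a probe set of its own, UFO, which read between 4.48 and 5.08 on the log2 scale over the 6 arrays. UFO was thus dim and a weak check of the tissue. The trp probe sets, Affymetrix controls that this plant RNA should not contain, read up to 3.86. SHT, an acyltransferase of the tapetum that makes spermidine conjugates of the pollen coat, read between 9.85 and 11.17. INO, a regulator of the outer ovule integument, read between 6.72 and 6.96. All values are the authors' log2 intensities after RMA, a method that corrects background, equalises the arrays and summarises the probes of a set. The array medians lay between 7.42 and 7.47. A level of one gene is not compared with that of another, since probe sets differ in brightness.

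Of the 8 genes, SPL, EMS1, AMS and ATMND1 fell between day 4 and day 5 and between day 3 and day 5. On the linear scale ATMND1 fell by 26.7%, EMS1 fell by 28.7%, SPL fell by 29.7% and AMS fell by 31.2% from day 3 to day 5. Neither these nor the other 4 passed the test between day 3 and day 4. In bulk buds, fewer cells of a type and less RNA per cell cannot be told apart. Changes below are log2 differences from a limma fit to all probe sets, called where the Benjamini-Hochberg adjusted p over all 22746 probe sets was under 0.05.

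**Figure D1:**
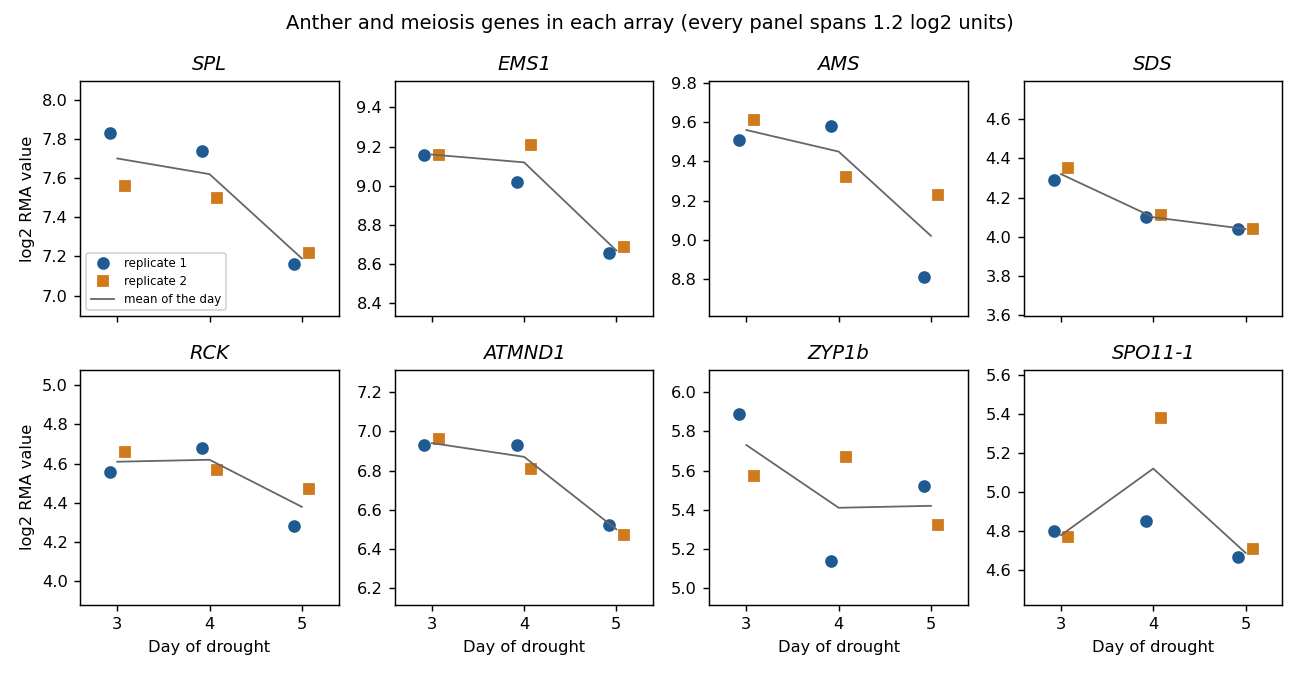
Log2 RMA intensity (vertical axis) of each of the 8 genes on each array by drought day (horizontal axis), with points for arrays and a line joining the day means. In all but ZYP1b both day 5 arrays lie below all arrays of days 3 and 4, and SDS is lower on day 4 too than on day 3. Of all probe sets, 37.1% have both day 5 arrays below both of day 4, and 35.7% below both of day 3.

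SPL, also called NOZZLE, is a transcription regulator needed for sporogenous cells to form. Its probe set read 7.83 and 7.56 on day 3, 7.74 and 7.50 on day 4, and 7.16 and 7.22 on day 5. The day 3 and day 4 arrays overlapped, and both day 5 arrays lay below all 4 earlier ones. SPL fell by 0.51 between day 3 and day 5 (standard error 0.12, adjusted p = 0.00994). It fell by 0.43 between day 4 and day 5 (standard error 0.12, adjusted p = 0.0269), while the day 4 minus day 3 difference was -0.07 (adjusted p = 0.784). The call of day 5 against day 3 depended on single arrays: adjusted p was 0.0994 when day 3 replicate 1 was dropped and 0.0566 when day 5 replicate 1 was. That of day 5 against day 4 was lost when day 4 replicate 1 or either day 5 array was dropped (adjusted p between 0.0925 and 0.144).

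EMS1 encodes a receptor kinase through which anther cells become tapetum. It read 9.16 on both day 3 arrays, 9.02 and 9.21 on day 4, and 8.66 and 8.69 on day 5. Day 4 straddled the day 3 level, and day 5 lay below every earlier array. EMS1 fell by 0.49 between day 3 and day 5 (standard error 0.10, adjusted p = 0.00501), and this call held in all 15 alternative settings that were run, with adjusted p up to 0.0353. It fell by 0.45 between day 4 and day 5 (standard error 0.10, adjusted p = 0.0107). That second call was lost when day 4 replicate 2, day 5 replicate 1 or day 5 replicate 2 was left out (adjusted p between 0.0580 and 0.0607).

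AMS, a bHLH transcription factor, controls genes of the tapetum and of pollen wall formation. The 2 day 5 arrays stood apart: 8.81 and 9.23, after 9.51 and 9.61 on day 3 and 9.58 and 9.32 on day 4. The gap of 0.42 between the day 5 arrays was wide, with only 2.3% of all probe sets showing a larger one that day. Even so, both lay below all earlier arrays. AMS fell by 0.54 between day 3 and day 5 (standard error 0.14, adjusted p = 0.0154) and by 0.43 between day 4 and day 5 (standard error 0.14, adjusted p = 0.0497). Without day 5 replicate 1, these were -0.33 (adjusted p = 0.147) and -0.22 (adjusted p = 0.354). The call of day 5 against day 3 was also lost without either day 3 array (adjusted p = 0.0553 and 0.102), and that of day 5 against day 4 was lost under 8 of its 15 alternatives, among them dropping day 4 replicate 1 (adjusted p = 0.239) or either day 3 array (adjusted p = 0.0734).

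ATMND1 helps the repair enzymes of meiosis to find and invade the partner chromosome. Its level read 6.93 and 6.96 on day 3, 6.93 and 6.81 on day 4, and 6.52 and 6.47 on day 5. The first 2 days differed by -0.08 (95% interval -0.30 to 0.14). ATMND1 then fell by 0.37 between day 4 and day 5 (standard error 0.10, adjusted p = 0.0209) and by 0.45 over the whole interval (standard error 0.10, adjusted p = 0.00616). The latter was lost only without day 5 replicate 2 (adjusted p = 0.0508), among 15 alternatives. The former was lost without day 4 replicate 1 or either day 5 array (adjusted p between 0.0736 and 0.123).

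The other 4 meiosis genes passed no pairwise test. SDS, a cyclin that meiotic pairing and recombination require, read 4.29 and 4.35 on day 3, 4.10 and 4.11 on day 4, and 4.04 on both day 5 arrays. Both later days lay below day 3 without overlap, with differences of -0.22 (adjusted p = 0.239) on day 4 and -0.28 (adjusted p = 0.0517) on day 5. The second crossed the threshold in 6 of 14 alternatives, among them repeated quantile normalization (adjusted p = 0.0296) and cyclic loess (adjusted p = 0.0365). SDS lay close to the array's background: its lowest array was 0.17 above the highest reading of the trp probe sets, Affymetrix controls that this plant RNA should not contain. A probe set near background understates a change.

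RCK, a DNA helicase that promotes crossovers, read 4.56 and 4.66 on day 3, 4.68 and 4.57 on day 4, and 4.28 and 4.47 on day 5. Days 3 and 4 overlapped, and day 5 was lower in both arrays. The differences of day 5 from day 3 and from day 4 were -0.23 (95% interval -0.47 to 0.01) and -0.25 (95% interval -0.49 to -0.01), with adjusted p = 0.136 and 0.126. Its lowest array was 0.42 above the highest trp reading.

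ZYP1b, a central component of the synaptonemal complex, had replicates that lay far apart. It read 5.89 and 5.57 on day 3, 5.14 and 5.67 on day 4, and 5.52 and 5.32 on day 5. The day 4 arrays were 0.53 apart, a gap that only 1.4% of all probe sets exceeded. The differences were -0.32 on day 4 (95% interval -0.69 to 0.05) and -0.31 on day 5 (95% interval -0.68 to 0.06), each against day 3; both intervals include 0. Single arrays moved these values: dropping day 4 replicate 1 brought the first to -0.06, and dropping replicate 2 of that day brought it to -0.59. With day 3 replicate 1 dropped, the first was -0.16 and the second -0.15, and with day 3 replicate 2 dropped the second was -0.47. ZYP1b has a near-identical tandem copy, ZYP1a, which has no probe set named alone here, so the signal may come from both.

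SPO11-1, a subunit of the enzyme that makes the meiotic DNA breaks, had its highest day mean on day 4. RCK had the same order of days, though its means of days 4 and 3 were nearly equal (4.62 and 4.61). SPO11-1 was dim too, at 0.8 above the highest trp reading in its lowest array. It read 4.80 and 4.77 on day 3, 4.85 and 5.38 on day 4, and 4.67 and 4.71 on day 5. Both day 4 arrays lay above all arrays of days 3 and 5, but they were 0.53 apart, and replicate 1 was close to day 3. The day 4 minus day 3 difference was 0.34 (95% interval 0.01 to 0.66, adjusted p = 0.229), and day 5 minus day 4 was -0.43 (95% interval -0.76 to -0.10, adjusted p = 0.0571). Without day 4 replicate 1, these became 0.60 (adjusted p = 0.0240) and -0.69 (adjusted p = 0.00483), and without day 4 replicate 2 they became 0.07 (adjusted p = 0.804) and -0.17 (adjusted p = 0.352). Day 5 differed from day 3 by -0.09 (95% interval -0.42 to 0.23).

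**Figure D2:**
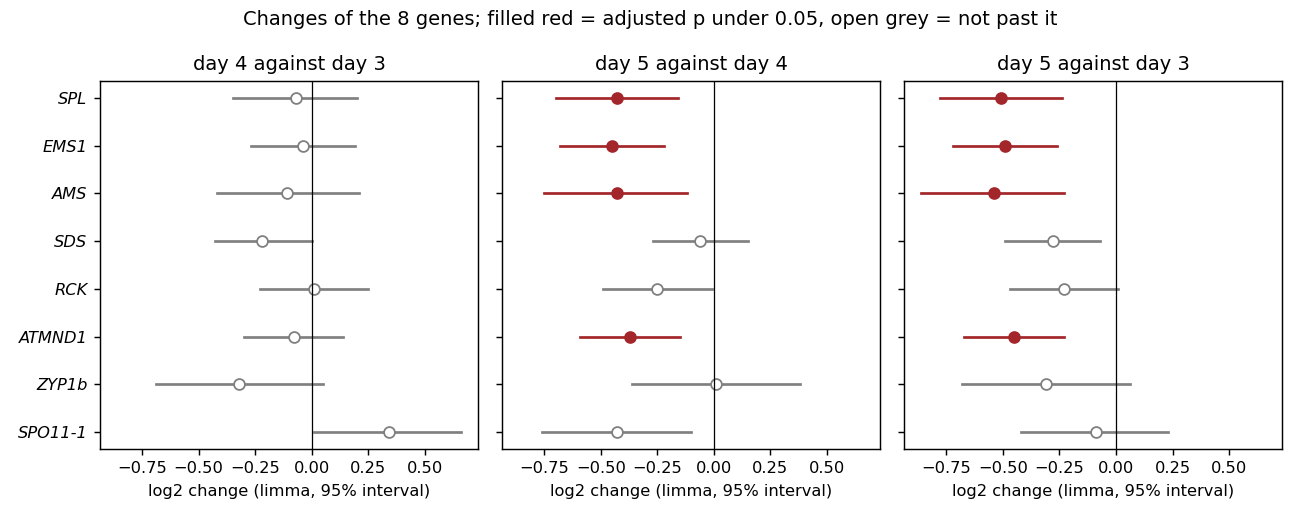
Log2 change with its 95% interval (horizontal axis) of each of the 8 genes in each of the 3 pairwise comparisons of days. The 4 called falls, of SPL, EMS1, AMS and ATMND1, appear in the day 5 comparisons, and no interval of day 4 against day 3 belongs to a called gene.

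Counted over the 8 genes, 0 passed between day 3 and day 4, against 4.95% of all probe sets called in either direction. By the same limma fit, 2 genes, SDS and SPO11-1, had an unadjusted p under 0.05 there. The share of all probe sets at that looser threshold was not counted, so this is no excess over them. The median difference was -0.08, beside 0.02 over all probe sets. Between day 4 and day 5, 4 of 8 fell, against 13.4% of all probe sets, with a median of -0.40 beside -0.05. In 7 of 8, all but ZYP1b, both day 5 arrays lay below both day 4 arrays, as in 37.1% of all probe sets. Fewer of all probe sets were called when a day 4 or day 5 array was left out. The loss was larger among the 8 when a day 5 array was the one dropped. Without day 5 replicate 1 the calls of all 4 genes were lost, while many calls over all probe sets were kept. The 4 differences were then -0.41 for SPL, -0.43 for EMS1, -0.22 for AMS and -0.39 for ATMND1. Without day 5 replicate 2 they were -0.46, -0.46, -0.64 and -0.35 in the same order.

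Between day 3 and day 5, 4 of 8 fell, against 15.7% of all probe sets. The median was -0.38, beside -0.01 over all probe sets. In all 8 genes both day 5 arrays lay below both day 3 arrays, as in 35.7% of all probe sets. Here too, fewer of all probe sets were called when a day 3 or day 5 array was left out. Without day 3 replicate 1, or day 5 replicate 1, the calls of SPL (-0.37 and -0.48) and AMS (-0.59 and -0.33) were lost. A moderated F test over the 3 days called the same 4 genes, SPL, EMS1, AMS and ATMND1 (adjusted p between 0.00743 and 0.0289), against 31.0% of all probe sets. These F test calls rested on the day 5 arrays. All were lost without day 5 replicate 1, and fewer of the 8 were called without day 5 replicate 2. Over all probe sets the F test also made fewer calls then, but it kept a larger part of them than among the 8. The comparisons of day 5 with day 3 and with day 4 share the day 5 arrays, so their calls are not separate evidence. The 8 were chosen with earlier results of these data known, so the shares over all probe sets are description, not a test.

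Whether the second daily step differed from the first was tested directly. The difference of the 2 steps passed in 0 of 8 genes, against 6.88% of all probe sets. EMS1 and SPO11-1 had an unadjusted p under 0.05, a threshold at which all probe sets were not counted. The difference was -0.41 for EMS1 (adjusted p = 0.191), -0.36 for SPL (adjusted p = 0.325), -0.32 for AMS (adjusted p = 0.453) and -0.29 for ATMND1 (adjusted p = 0.320). A later onset of the falls was therefore not shown. For SPO11-1 the difference of the steps was -0.77 (95% interval -1.33 to -0.20, adjusted p = 0.0969).

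The poly-A control RNAs, which are spiked into each sample, differed between the days. Their mean was 7.09 on day 3, 7.03 on day 4 and 7.58 on day 5, and the 25S ribosomal RNA probe set read 12.30, 12.48 and 13.41. Scaled to these controls instead of to the bulk of the RNA, the median of all probe sets moved by -0.50 between day 3 and day 5, and all 8 genes fell, from SPO11-1 by 0.58 to AMS by 1.03. So did 76.8% of all probe sets under that scaling. The part of the controls in the result was not tested.

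**Figure D3:**
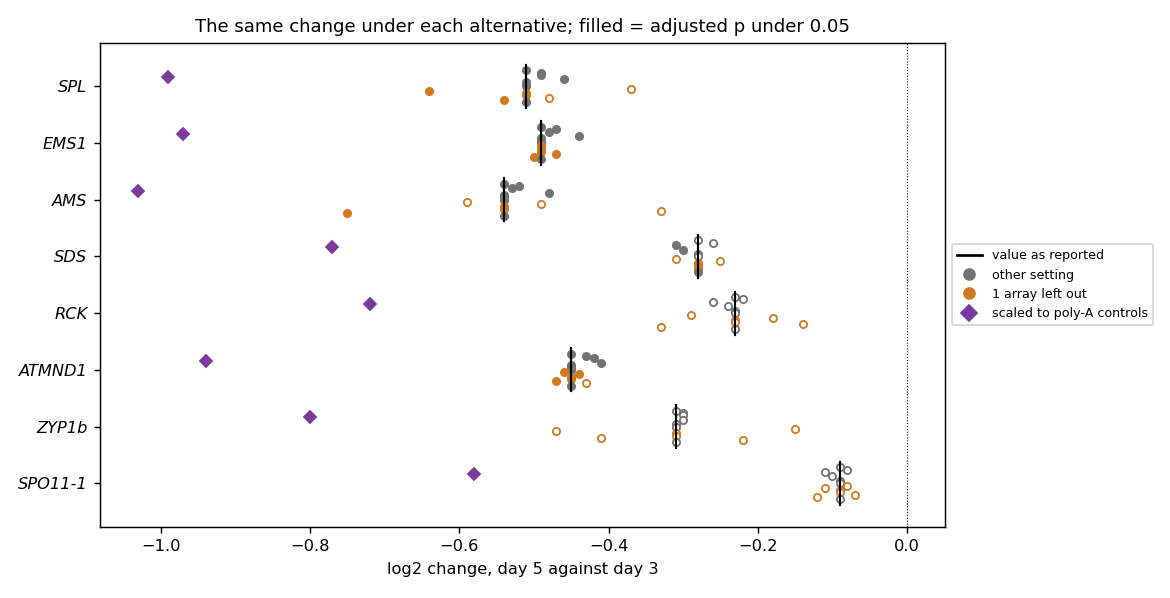
Log2 change of day 5 against day 3 (horizontal axis) of each of the 8 genes under every setting, with filled symbols where the adjusted p was under 0.05. EMS1 is called in every setting drawn, and the points furthest to the left come from scaling to the poly-A controls.

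Other genes of the same pathways were read from lists of pathway genes. Besides the 8, 4 of 46 listed anther genes and 6 of 56 listed meiosis genes were measured. The rest had no probe set named with them alone, or a symbol and locus that the reference does not pair. Of the 4 anther genes, 2 fell between day 3 and day 5, against 15.7% of all probe sets, with a list median of -0.48 beside -0.01 over all probe sets. SHT read 11.17 and 11.02 on day 3, 11.08 and 10.91 on day 4, and 10.04 and 9.85 on day 5. Both day 5 arrays were thus far below the earlier ones. It fell by 1.15 over the interval (standard error 0.11, adjusted p = 3.82e-05). On the linear scale it fell by 54.9%.

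ROXY1, a glutaredoxin that acts with its partner ROXY2 in early anther cell fate, read 6.67 and 6.98 on day 3, 6.71 and 6.70 on day 4, and 5.90 and 6.30 on day 5. Day 5 was lower than every earlier array. It fell by 0.72 (standard error 0.14, adjusted p = 0.00338). ROXY2 differed by -0.24 (adjusted p = 0.244) and JAG, a zinc finger protein that promotes growth of floral organs, by -0.14 (adjusted p = 0.377). JAG was lower on day 4 than on the other days, and fell by 0.45 between day 3 and day 4 (adjusted p = 0.0361), a call lost when any single array was dropped (adjusted p between 0.0535 and 0.201).

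Of the 6 meiosis genes, 2 fell between day 3 and day 5, against the same 15.7% of all probe sets, with a list median of -0.17 beside -0.01. TOP3A, a topoisomerase that dissolves joint DNA molecules, read 8.03 and 8.06 on day 3, 7.88 and 7.66 on day 4, and 7.45 and 7.28 on day 5, so each day was lower than the last. It fell by 0.68 (standard error 0.11, adjusted p = 0.00106). FANCM, a helicase that limits crossovers, fell by 0.53 (adjusted p = 0.0277), and differed by -0.25 without day 3 replicate 2 (adjusted p = 0.248); its day 3 arrays read 5.77 and 6.33. The FANCM call was also lost when either day 5 array was dropped (adjusted p = 0.138 and 0.0623). Both proteins also act in dividing somatic cells. The remaining 4 genes, RECQ4A, RECQ4B, SPO11-2 and DFO, lay between -0.18 and 0.15 and did not pass.

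**Figure D4:**
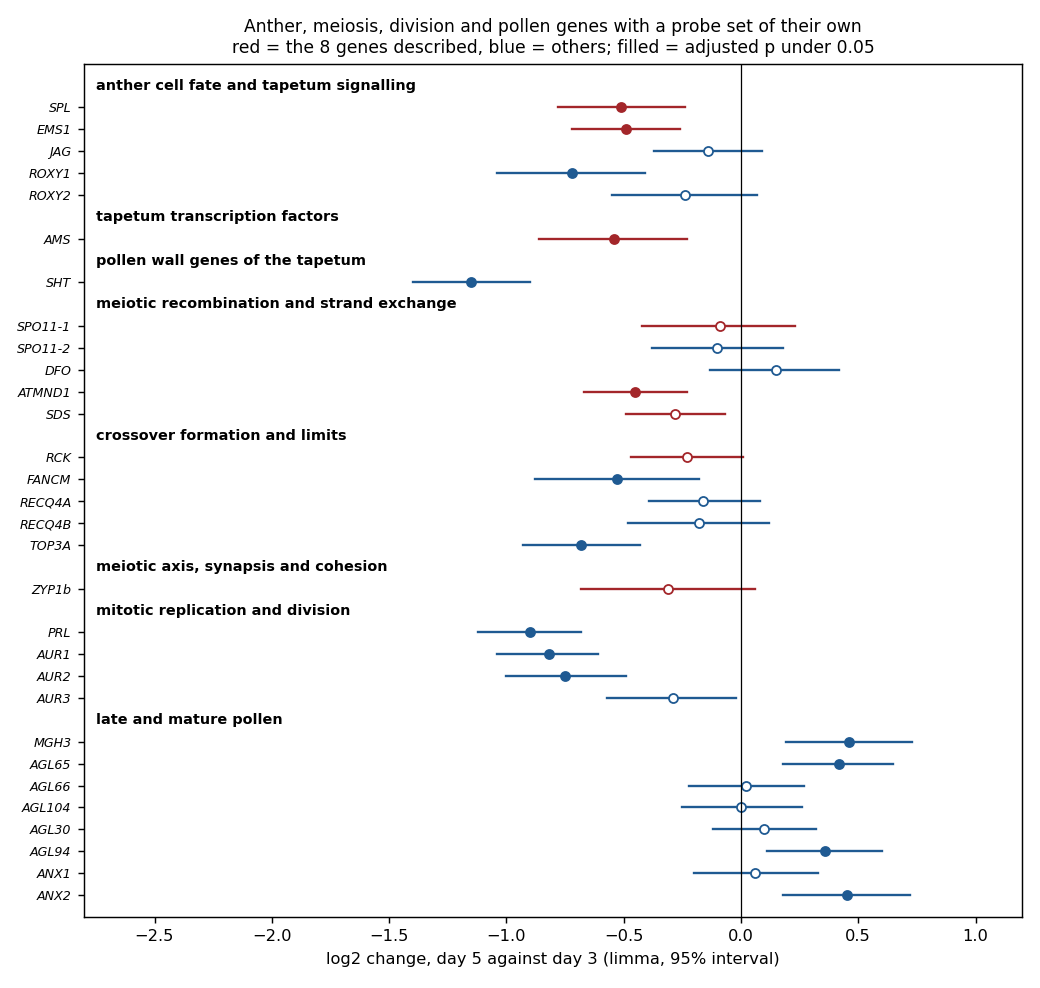
Log2 change of day 5 against day 3 (horizontal axis) of each measured gene on the anther, meiosis, mitotic and late pollen lists, with 95% intervals. Anther and mitotic genes lie mostly left of 0, and late pollen genes at or right of 0.

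The buds hold other cells whose share could move with these values. Of 4 mitotic replication and division genes measured, 3 fell between day 3 and day 5: PRL, a subunit of the replicative helicase, by 0.90, and the Aurora kinases AUR1 and AUR2 by 0.82 and 0.75. Of all probe sets, 15.7% fell. The median of the list of 4 was -0.79, beside -0.01. The summed level of that list lay between 11.31 and 11.36 on day 3, between 11.10 and 11.13 on day 4, and between 10.55 and 10.56 on day 5. Late pollen genes went the other way: 4 of 8 rose, against 13.2% of all probe sets, with a list median of 0.23.

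Among the late pollen genes, MGH3, a histone H3 of the male germ line, read 7.15 and 7.34 on day 3, 7.46 and 7.50 on day 4, and 7.85 and 7.55 on day 5. It rose by 0.46 (adjusted p = 0.0157), and AGL65, a MADS-box factor of pollen maturation, rose by 0.42 (adjusted p = 0.0140). ANX2, a receptor kinase of the growing pollen tube, rose by 0.45 (adjusted p = 0.0189). Each of these calls was lost when one of 2 or 3 single arrays was dropped, with adjusted p up to 0.148 for MGH3, 0.116 for AGL65 and 0.156 for ANX2. The arrays concerned were day 3 replicate 1 for MGH3 and AGL65, day 3 replicate 2 for ANX2, day 5 replicate 1 for all 3, and day 5 replicate 2 for AGL65. Under the poly-A scaling the changes became -0.03, -0.07 and -0.04. The other gene called, AGL94, rose by 0.36 (limma, adjusted p = 0.0319). It read 3.75 and 3.60 on day 3, 3.79 and 3.81 on day 4, and 3.93 and 4.14 on day 5. It thus lay at background, as the highest trp reading was 3.86. The AGL94 change was 0.25 without day 5 replicate 2, and -0.13 under the poly-A scaling. The summed level of the late pollen list lay between 9.65 and 9.68 on day 3, 9.82 and 9.87 on day 4, and 9.85 and 9.91 on day 5. What these genes have to do with the falls of the 8 was not tested.

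The 8 genes were also compared with each other over the 6 arrays by the root mean square difference of their profiles, each profile centred on its own mean. EMS1 and ATMND1 were 0.097 apart and SPL and ATMND1 0.1, the closest pairs, while AMS and ZYP1b were furthest apart, at 0.360. Among 13512 other single-gene probe sets, the nearest to EMS1 was FEY (0.018), the nearest to ATMND1 was AT5G09780 (0.017), and the nearest to SPL was the plastid gene psaI (0.028). For SPO11-1 the nearest was UFO (0.049), which was likewise higher in day 4 replicate 2, at 5.08, than in the other 5 arrays. Within a distance of 0.1 of the genes in the closest pairs lay 140 others for SPL, 391 for EMS1 and 791 for ATMND1. Such closeness was thus not particular to these pairs. For the rest it was 17 for AMS, 937 for RCK, 5 for ZYP1b, 46 for SPO11-1 and 1084 for SDS, whose profile is nearly flat.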

How the data were processed

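The data were 6 Affymetrix ATH1 arrays of total RNA, and the authors deposited log2 intensities made by RMA in affy (per the submitters' processing notes, which name no version). Groups (drought day) came from the sample labels. The 64 control probe sets were left out and 22746 were tested with limma 3.58.1 in R 4.3.3: one fit over all 3 days, empirical Bayes variances (3 residual and 8.01 prior degrees of freedom) and Benjamini-Hochberg adjustment over all probe sets. No scanner files were used here, so RMA was not repeated. Probe sets were named from the platform annotation, with 13513 naming 1 gene, 503 several and 8730 none; of the first, 13436 matched RefSeq. Of 163 genes on the pathway lists, 34 were measured and 12 were left out because the reference does not pair symbol and locus. Members and lists were chosen with earlier results of these data known. The genes named were the 8 and up to 4 others a list, by smallest p in day 5 against day 3. Nearest profiles of some of the 8, and genes whose change took the other sign under a setting, were named too. The fit was tested on simulated data in which only 200 probe sets changed. For day 5 against day 3 it called 56.5% of falls of 0.5 and 99.5% of falls of 1. In the data 28.9% of probe sets were called in that comparison, which changes the adjustment of p. The simulated shares therefore do not give the recovery here, and whether falls near 0.5 were missed cannot be read from them. Same-numbered replicates of different days deviated together with correlations of 0.058, -0.002 and 0.098, so numbers were not taken as pairs. Alternatives were the variance prior, scaling, filters, a replicate block, the days in the fit, and leaving out each array. Precision is limited by having 2 arrays a day: the median standard error of a change was 0.11.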

Additional observations from a re-analysis of the deposited data

Results flagged for a closer look

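Within the genes of the pathway lists, the second daily step differed from the first for JAG and SHT. The limma test was that of the difference of the 2 steps described above. The difference of the steps was 0.76 for JAG (adjusted p = 0.0343), which read 5.78 and 5.96 on day 3, 5.45 and 5.39 on day 4, and 5.77 and 5.69 on day 5. Its call was lost under every omission of a single array, where it lay between 0.67 and 0.84. A variance prior tied to the mean level also ended the call (adjusted p = 0.0598), and the poly-A scaling brought the value to 0.14 (adjusted p = 0.554). The difference was -0.94 for SHT (adjusted p = 0.0201), which differed by -0.10 between day 3 and day 4 (adjusted p = 0.664) and fell by 1.05 between day 4 and day 5. Without single arrays it lay between -1.11 and -0.78 and was lost in 4 of 6 cases, and the poly-A scaling brought it to -1.56.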

How the results depend on the processing

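With the replicate block, the paired fit called 5 genes rather than 4 between day 4 and day 5 (SPO11-1, adjusted p = 0.0386), and 4 and 0 in the others. Scaled to the poly-A controls, the fit called 8 of the 8 in day 5 against day 4, 8 in day 5 against day 3, 6 in the difference of steps and 8 in the F test, and over all probe sets 19570, 18174, 15061 and 19922. Its share of called probe sets that rose was 68.0%, 2.0% and 3.9% for day 4 against 3, day 5 against 4 and day 5 against 3, where the main fit gave 50.1%, 44.0% and 45.6%; cyclic loess gave 55.2% for day 5 against day 4. Under the poly-A scaling the sign of some changes turned negative. For day 5 against day 4 this was ZYP1b (-0.54). For day 5 against day 3 it was DFO (-0.34), MGH3 (-0.03), AGL65 (-0.07), AGL66 (-0.46), AGL104 (-0.48), AGL30 (-0.39), AGL94 (-0.13), ANX1 (-0.42) and ANX2 (-0.04). Of these, MGH3, AGL65, AGL94 and ANX2 were called in the main fit and no longer passed. The others were not called in the main fit. The prior that follows the mean level gave 2485 calls in the difference of steps. With single arrays left out (the lone array of a day is then assumed to vary like the other days), the 8 genes gave 0 to 1 calls in day 4 against day 3, 0 to 3 in day 5 against day 4, 2 to 5 in day 5 against day 3, 0 to 1 in the difference of steps and 0 to 5 in the F test. All probe sets gave 227 to 1033, 2506 to 4822, 3844 to 7034, 471 to 962 and 3842 to 7121. Leaving out the dimmest 30% of probe sets removed SDS, RCK, ZYP1b and SPO11-1. The causes were not tested.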

Other observations

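In the ovule and carpel list, ALC, a bHLH factor of fruit opening, rose by 0.77 between day 3 and day 5 (limma, adjusted p = 0.00117), reading 9.17 and 8.83 on day 3, 9.53 and 9.68 on day 4, and 9.68 and 9.87 on day 5. SPT, a bHLH factor of carpel fusion, differed by 0.20, and INO by -0.08, neither past the threshold. Scaled to the poly-A controls, ALC had an adjusted p of 0.107.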
